A study of Mus musculus with 10 samples.

Results

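The collagen genes were taken as all genes whose mouse symbol, mapped from the gene identifier, is Col, a type number, the letter a and a chain number. This rule gave 44 of the 55487 genes in the count tables, in 27 collagen types. Every one of the 44 genes was over the floor of 3 counts in at least 1 of the 10 libraries, and 35 were over it in all 10. By the structure of their products, 11 encode chains of fibrillar collagens, 9 chains of fibril-associated collagens (FACITs), 6 chains of the basement membrane network, 6 chains of beaded filaments (type VI), 4 transmembrane collagens, 3 short-chain network collagens and 2 multiplexins, 1 encodes the anchoring fibril collagen (type VII), and 2 fall outside these classes.

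Collagens are extracellular proteins built of trimers of alpha chains that wind into a triple helix, and the chains of a trimer may come from 1 gene or from several. Types I, III and V form the banded fibrils of connective tissue and are made mainly by fibroblasts, whereas type IV forms the sheet of the basement membrane, which in the mammary gland separates the epithelium from the stroma and also surrounds blood vessels and adipocytes. In epithelial tissue, basal and myoepithelial cells add basement membrane and anchoring collagens, and macrophages take up and degrade collagen fragments through surface receptors.

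The libraries came from 10-wk-old female BALB/c mice in diestrus. The WT mice were Csf1r-Cre neg;Cebpb fl/fl and the CebpbΔM mice Csf1r-Cre pos;Cebpb fl/fl, so that the controls carry the floxed alleles of *Cebpb* too, and the Csf1r-iCre transgene directs the deletion to CSF1R-expressing myeloid cells. Mammary epithelial cells (MECs, 2 libraries per genotype, numbered 1 and 3) were purified by negative selection from epithelial organoids, and macrophages (WT 4 and 5, CebpbΔM 4 to 7) by positive selection for F4/80. The labels call the CebpbΔM samples a knockdown. No source says whether the libraries of a group came from separate mice, so that the *P*-values measure only the spread between these libraries, which may be technical. Both kinds of cells were released with collagenase A, and the counts are of RNA, not of deposited collagen protein.

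The total count was 25310926 to 27008166 in the MEC libraries and 16935000 to 20174722 in the macrophage libraries. Levels are given as CPM, counts scaled to library size, after correction of the sizes by the trimmed mean of M-values (TMM). Single genes are ranked or set in ratio only as CPM per kb of exon. Sums and shares of collagen counts are not divided by length, so that longer transcripts weigh more in them. The exon length is that of the annotation, for example 6563 nt for *Col1a1* and 12426 nt for *Col1a2*. Ranks and ratios per kb depend on it. *Cebpb* itself was counted 25 and 28 in WT and 69 and 42 in CebpbΔM MECs, which were not the target of the deletion, and 13 and 15 in WT and 16, 13, 5 and 4 in CebpbΔM macrophages, too few counts to check the genotype of the macrophage libraries. Over the 10 macrophage markers, including *Adgre1*, which encodes F4/80, the summed level was 31.4 to 46.5 CPM in MECs and 3301 to 7757 CPM in macrophages. The macrophage libraries also held the 11 luminal markers at 5677 to 10959 CPM (28208 to 36807 CPM in MECs), the 8 basal and myoepithelial markers at 755 to 3248 CPM (6361 to 7921 CPM in MECs), and the 8 endothelial markers at 1027 to 2189.6 CPM (92.1 to 129 CPM in MECs). The 10 fibroblast markers, *Pdgfra*, *Dcn* and *Lum* among them, summed to 1635 to 3262 CPM in MECs and 1638 to 3909 CPM in macrophages. Both preparations thus held transcripts that mark other lineages, and in such bulk samples fewer cells of a type and less RNA per cell cannot be told apart.

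Collagen transcripts made up 0.345% to 0.706% of the counts of a MEC library and 0.339% to 0.873% of those of a macrophage library. The summed level was 7574 and 5523 CPM in WT MECs 1 and 3 and 3776 and 6047 CPM in CebpbΔM MECs 1 and 3. In macrophages it was 6309 and 6763 CPM in WT 4 and 5 and 6291, 8385, 3498 and 3530.4 CPM in CebpbΔM 4, 5, 6 and 7. The genotypes overlapped in both cell types, with CebpbΔM MEC 1 the lowest MEC library and CebpbΔM macrophages 6 and 7 below the other macrophage libraries. *Col1a1*, *Col1a2* and *Col3a1* together took 56% to 68.5% of the collagen counts in MECs and 55.6% to 71.3% in macrophages.

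**Figure D1:**
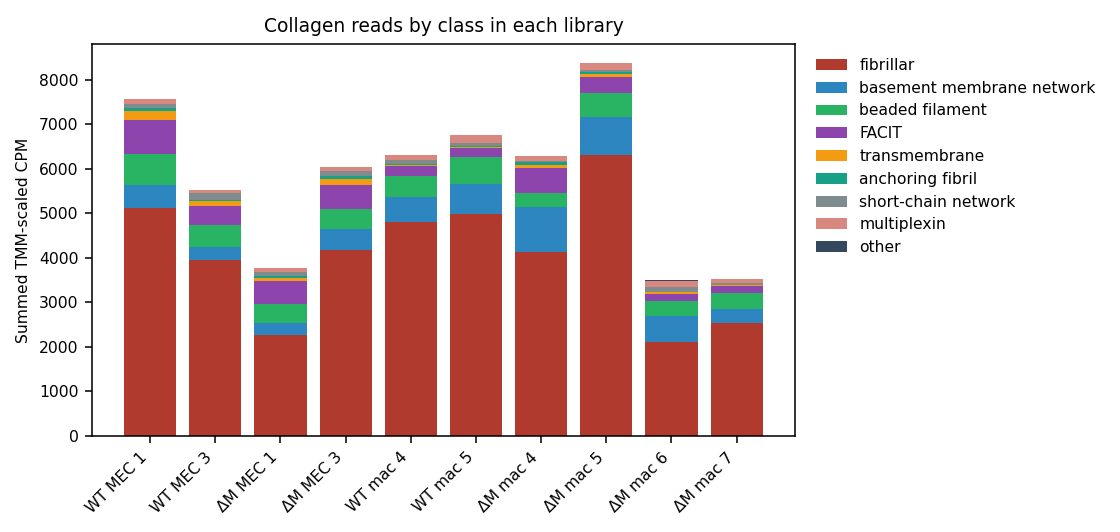
Summed TMM-scaled CPM of the collagen genes in each of the 10 libraries (x axis; ΔM stands for CebpbΔM and mac for macrophages), stacked by class. Fibrillar collagens make up most of each bar, and the lowest bars are ΔM mac 6 at 3498 CPM, ΔM mac 7 at 3530.4 CPM and ΔM MEC 1 at 3776 CPM.

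The share of the fibrillar class was 59.8% to 71.5% of collagen counts in MECs and 60.1% to 76.2% in macrophages. The basement membrane network took 5.44% to 7.89% in MECs and 8.9% to 16.7% in macrophages, ranges that do not overlap. FACITs held 7.91% to 13.2% in MECs and 2.85% to 9.05% in macrophages, with overlap, and transmembrane collagens 1.76% to 2.59% against 0.395% to 1.04%, without overlap. Per kb of exon, the leading genes over the 4 MEC libraries were *Col1a1* (272 CPM per kb), *Col3a1* (89.1), *Col1a2* (83.5), *Col6a1* (62.1) and *Col16a1* (38.2). Over the 6 macrophage libraries they were *Col1a1* (218 CPM per kb), *Col3a1* (168), *Col1a2* (62.5), *Col4a1* (52.4) and *Col6a1* (46.4). The same 3 genes thus led in both cell types, and the lowest were *Col22a1* in MECs (0.00658 CPM per kb) and *Col2a1* in macrophages (0.00324 CPM per kb).

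**Figure D2:**
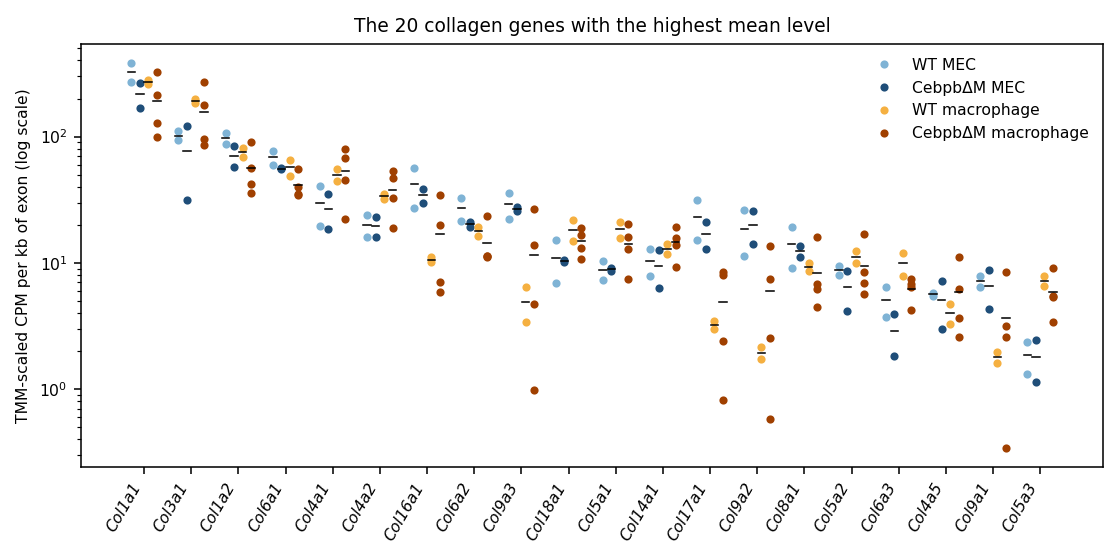
Levels of the 20 collagen genes with the highest mean over all libraries, in TMM-scaled CPM per kb of exon (log scale); each point is a library and each bar the mean of its group. Points of WT and CebpbΔM libraries lie among each other for most genes, and those of the CebpbΔM macrophages spread over more than 5-fold for *Col9a1*, *Col9a2*, *Col9a3*, *Col16a1* and *Col17a1*.

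To ask whether *Cebpb* deletion in macrophages went with a change in collagen transcripts, CebpbΔM and WT were compared in each cell type by quasi-likelihood (QL) tests in edgeR, and *P*-values were adjusted across every gene tested (Benjamini–Hochberg), with calls at 0.05 or below. In MECs the test passed 0 of the 38 collagen genes that could be tested, beside 8 of all 15689 genes (0.051%). Not a single collagen gene had an unadjusted *P* under 0.05 in MECs, whereas 5.42% of all genes did, and the smallest adjusted *P* of a member was 0.928. In macrophages 0 of 40 collagen genes and 0 of 17772 genes (0.0%) passed; 2 collagen genes, *Col23a1* and *Col6a3*, and 8.63% of all genes had an unadjusted *P* under 0.05. The likelihood ratio test of edgeR and DESeq2 likewise called 0 collagen genes in either comparison. In MECs the log2 fold change of CebpbΔM over WT was below 0 for 28 of 38 collagen genes (73.7%), against 51.4% of all genes, and its median was -0.12, against -0.01. In macrophages 19 of 40 (47.5%) were below 0, against 49.6% of all genes, with a median of 0.05 against 0.0040. The 2 MEC genotypes did not overlap for 9 of the 38 genes (23.7%, against 28.2% of all genes), and the macrophage genotypes for 3 of 40 (7.5%, against 18.5%), both shares below those of all genes. These counts rest on TMM-scaled levels. By total count alone, *Col1a1*, *Col1a2*, *Col4a6*, *Col6a1* and *Col11a2*, which are among the 9, overlapped between the MEC genotypes. Marker levels also differed between the macrophage genotypes. The macrophage markers summed to 3301 and 4973 CPM in WT 4 and 5 and 6074, 6292, 7757 and 7701 CPM in CebpbΔM 4 to 7, with 10 of 10 genes above 0. The luminal markers summed to 10448 and 10959 CPM in WT and 6566, 5677, 5973 and 7812 CPM in CebpbΔM macrophages, with 10 of 11 below 0. Neither sum overlapped between the genotypes, 0 genes of either list passed the QL test, and the part of this in the collagen values was not tested. The genes under the filter on low counts, which keeps those above 1 CPM in at least 2 libraries, were *Col6a5*, *Col6a6*, *Col10a1*, *Col19a1*, *Col22a1* and *Col24a1* in MECs and *Col2a1*, *Col8a2*, *Col10a1* and *Col22a1* in macrophages.

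**Figure D3:**
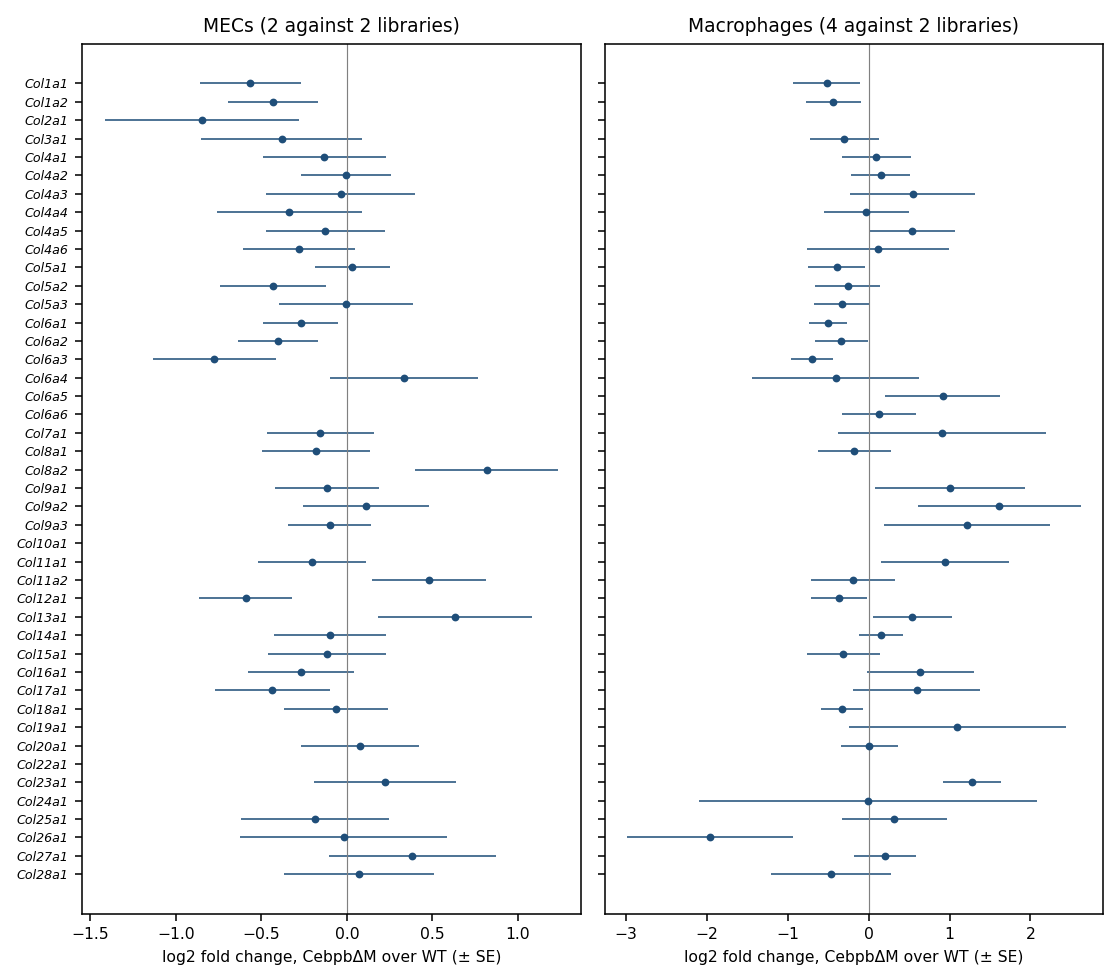
Log2 fold change of CebpbΔM over WT (x axes) for each collagen gene that passed the filter, with MECs left and macrophages right. Bars are the standard error, worked back from the fold change and the QL test statistic. The scales of the x axes differ, and genes without a point were not tested. In MECs 28 of 38 points lie below 0, and in macrophages 19 of 40.

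Type I collagen, the main fibril of connective tissue, is a trimer of the products of *Col1a1* (ENSMUSG00000001506, chromosome 11, 94936224 to 94953042, plus strand) and *Col1a2* (ENSMUSG00000029661, chromosome 6, 4504814 to 4541544, plus strand); all coordinates are on GRCm38. *Col1a1* was at 2503 and 1789 CPM in WT MECs 1 and 3 and 1098 and 1750.0 CPM in CebpbΔM MECs 1 and 3. With TMM scaling both CebpbΔM values lay below both WT values, and the log2 fold change was -0.56 (SE 0.29, adjusted *P* of 0.9997 by edgeR QL). *Col1a2* was at 1324 and 1078 CPM in WT MECs 1 and 3 and 709.9 and 1037 CPM in CebpbΔM MECs 1 and 3. It again had no overlap, with a log2 fold change of -0.43 (SE 0.26, adjusted *P* of 0.9997 by edgeR QL). By total count alone, the MEC genotypes overlapped for both genes. CebpbΔM MEC 3 had the smaller total, 25310926 against 25986509 in WT MEC 3, but more counts of both. These were 45183 against 44174 for *Col1a1* and 26778 against 26622 for *Col1a2*. In macrophages *Col1a1* was at 1844 and 1701 CPM in WT macrophages 4 and 5 and 1406, 2118, 656 and 845 CPM in CebpbΔM macrophages 4, 5, 6 and 7. CebpbΔM 5 exceeded both WT libraries and CebpbΔM 6 and 7 were the lowest, so the genotypes overlapped (log2 fold change -0.52, SE 0.41, adjusted *P* of 0.787 by edgeR QL). *Col1a2* had the same order of CebpbΔM libraries, at 860.4 and 1001 CPM in WT macrophages 4 and 5 and 705, 1123, 443 and 525 CPM in CebpbΔM macrophages 4, 5, 6 and 7 (log2 fold change -0.44, SE 0.34, adjusted *P* of 0.781 by edgeR QL). The ratio of *Col1a1* to *Col1a2*, per kb, ranged from 2.8 to 4.06 over the 10 libraries, a 1.45-fold range, while *Col1a1* itself spanned 3.82-fold.

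Type III collagen, a trimer of the *Col3a1* chain alone (ENSMUSG00000026043, chromosome 1, 45311538 to 45349706, plus strand), forms the thin reticular fibres. *Col3a1* was at 1085 and 915 CPM in WT MECs 1 and 3 and 308 and 1190.3 CPM in CebpbΔM MECs 1 and 3. CebpbΔM MEC 1 stood below the other 3 libraries and CebpbΔM MEC 3 above both WT libraries, and the log2 fold change was -0.38 (SE 0.47, adjusted *P* of 0.9997 by edgeR QL). Without CebpbΔM MEC 3 it was -1.70 (edgeR QL, adjusted *P* = 0.0016), with *Col5a2* and *Col6a3* then also past the threshold and lower, beside 339 of 15295 genes in that fit. The lone CebpbΔM library is there assumed to vary like the 2 WT libraries, which alone give the spread. Without CebpbΔM MEC 1 the log2 fold change of *Col3a1* was 0.30, so that the direction differed with the library left out. In macrophages *Col3a1* was at 1794 and 1942 CPM in WT macrophages 4 and 5 and 1729.6, 2645, 846 and 941 CPM in CebpbΔM macrophages 4, 5, 6 and 7, a range that held both WT values (log2 fold change -0.30, SE 0.42, adjusted *P* of 0.899 by edgeR QL). The ratio of *Col3a1* to *Col1a1*, per kb, was 0.188 to 0.455 in MECs and 0.651 to 0.863 in macrophages, without overlap between the cell types. Within MECs, CebpbΔM 1 had the lowest ratio, 0.188, and CebpbΔM 3 the highest, 0.455. The sum of the fibroblast markers was 3262 CPM in CebpbΔM MEC 1, the highest of the 4, and 2404, 1653 and 1635 CPM in CebpbΔM 3, WT 1 and WT 3. Most of this sum was *Dcn*, counted 32106 and 32050 in WT and 72269 and 52868 in CebpbΔM MECs, and of the 10 markers 5 had a log2 fold change above 0 and 5 below, with a median of -0.01. An exon of *Col3a1* overlaps *Gm47302* on the same strand, so that reads there could not be told apart.

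Type V collagen copolymerises with type I and sets fibril diameter, from chains of *Col5a1*, *Col5a2* and *Col5a3*. *Col5a1* was at 87.9 and 63.1 CPM in WT MECs 1 and 3 and 78.2 and 73.9 CPM in CebpbΔM MECs 1 and 3. *Col5a2*, which lies tail to tail with *Col3a1* at a distance of 24614 bases, was at 91.1 and 77.5 CPM in WT MECs 1 and 3 and 39.6 and 82.8 CPM in CebpbΔM MECs 1 and 3. CebpbΔM MEC 1 was again the lowest library for *Col5a2* but not for *Col5a1*. In macrophages *Col5a1* was at 136 and 179 CPM in WT macrophages 4 and 5 and 137, 175, 64 and 111 CPM in CebpbΔM macrophages 4, 5, 6 and 7, and the genotypes overlapped. *Col5a2* also overlapped between the macrophage genotypes, at 118 and 96.2 CPM in WT macrophages 4 and 5 and 80.5, 163, 54.8 and 66.4 CPM in CebpbΔM macrophages 4, 5, 6 and 7. *Col5a3* (ENSMUSG00000004098, chromosome 9, 20770050 to 20815067, minus strand) passed the QL test between the WT cell types, with 12.6 ± 5.08 CPM (SD, n = 2) in WT MECs and 49.3 ± 6.14 CPM (SD, n = 2) in WT macrophages. Its log2 fold change of WT macrophages over WT MECs was 1.97 (SE 0.48, adjusted *P* of 0.0119 by edgeR QL). *Col5a1* and *Col5a2* were also higher in both WT macrophage libraries than in both WT MEC libraries. *Col5a1* had an adjusted *P* of 0.0611 by edgeR QL and of 0.0278 by edgeR's likelihood ratio test. Between genotypes *Col5a3* overlapped, at 16.2 and 8.99 CPM in WT MECs 1 and 3 and 7.82 and 16.7 CPM in CebpbΔM MECs 1 and 3, and at 45 and 53.6 CPM in WT macrophages 4 and 5 and 37.5, 62.1, 23 and 36.7 CPM in CebpbΔM macrophages 4, 5, 6 and 7.

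The minor fibrillar collagens were far lower. *Col27a1*, whose product forms thin fibrils, was at 1.57 and 0.891 CPM in WT MECs 1 and 3 and 1.38 and 1.78 CPM in CebpbΔM MECs 1 and 3, and at 3.65 and 4.6 CPM in WT macrophages 4 and 5 and 3.3, 5.78, 5.63 and 4.67 CPM in CebpbΔM macrophages 4, 5, 6 and 7. All 6 macrophage values exceeded all 4 MEC values, and the log2 fold change of WT macrophages over WT MECs was 1.74 (SE 0.48, adjusted *P* of 0.0211 by edgeR QL). *Col2a1*, the cartilage collagen, was counted 117 and 56 in WT MECs 1 and 3 and 74 and 22 in CebpbΔM MECs 1 and 3. In macrophages its counts were 0 and 0 in WT macrophages 4 and 5 and 0, 0, 0 and 3 in CebpbΔM macrophages 4, 5, 6 and 7. WT MECs were at least 23.9-fold higher than WT macrophages, taken against the floor of 3 counts per library, and the adjusted *P* by edgeR QL was 0.00711. The other 3 of this class, *Col11a1*, *Col11a2* and *Col24a1*, had group means between 0.424 and 7.34 CPM. Of the 10 fibrillar genes tested in each cell type, 7 had a log2 fold change below 0 in MECs (range -0.85 to 0.48) and 8 in macrophages (range -0.52 to 0.94).

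Type IV collagen has 6 chains whose genes lie in 3 head-to-head pairs: *Col4a1* and *Col4a2* on chromosome 8 with 22 shared bases, *Col4a4* and *Col4a3* on chromosome 1 with 71 bases between them, and *Col4a6* and *Col4a5* on chromosome X with 1308. The chains of *Col4a1* and *Col4a2* form the trimer found in nearly all basement membranes. *Col4a1* was at 301 and 146 CPM in WT MECs 1 and 3 and 138 and 261 CPM in CebpbΔM MECs 1 and 3. WT 1 and CebpbΔM 3 were high and WT 3 and CebpbΔM 1 low, and the log2 fold change was -0.13 (SE 0.36, adjusted *P* of 0.9997 by edgeR QL). In macrophages *Col4a1* was at 329 and 409 CPM in WT macrophages 4 and 5 and 595, 505, 339 and 167 CPM in CebpbΔM macrophages 4, 5, 6 and 7, with CebpbΔM 4 the highest and CebpbΔM 7 the lowest library (log2 fold change 0.10, SE 0.43, adjusted *P* of 0.974 by edgeR QL). Its sign turned on single libraries in both cell types, being 0.47 in MECs without WT 1 and -0.16 in macrophages without CebpbΔM 4. *Col4a2* was at 159.8 and 106 CPM in WT MECs 1 and 3 and 106 and 154 CPM in CebpbΔM MECs 1 and 3, and at 212 and 233 CPM in WT macrophages 4 and 5 and 354, 311, 215 and 124 CPM in CebpbΔM macrophages 4, 5, 6 and 7. The *Col4a1* to *Col4a2* ratio per kb stayed within 1.15 to 1.67 in the 10 libraries while *Col4a1* spanned 4.33-fold.

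The chains of *Col4a3*, *Col4a4* and *Col4a5* form the trimer of the mature glomerular membrane, and those of *Col4a5* and *Col4a6* a trimer of epithelial membranes. *Col4a5* was at 39 and 36.6 CPM in WT MECs 1 and 3 and 19.9 and 47.9 CPM in CebpbΔM MECs 1 and 3, and at 22.2 and 31.5 CPM in WT macrophages 4 and 5 and 74.7, 41.9, 24.7 and 17.4 CPM in CebpbΔM macrophages 4, 5, 6 and 7, with overlap between the genotypes in both cell types. *Col4a6* was at 5.89 and 5.63 CPM in WT MECs 1 and 3 and 4.05 and 5.27 CPM in CebpbΔM MECs 1 and 3. Both CebpbΔM values lay below both WT values with TMM scaling, but not by total count alone. In macrophages *Col4a6* was at 0.55 and 1.8 CPM in WT macrophages 4 and 5 and 2.74, 1.12, 0.595 and 0.719 CPM in CebpbΔM macrophages 4, 5, 6 and 7. WT macrophages were lower than WT MECs for *Col4a6* (edgeR QL, adjusted *P* = 0.0494), and the *Col4a5* to *Col4a6* ratio per kb was 5.84 to 10.8 in MECs and 20.7 to 49.2 in macrophages, without overlap, although the 2 genes lie side by side. *Col4a3* and *Col4a4* were low. *Col4a3* was at 5.2 and 3.16 CPM in WT MECs 1 and 3 and 2.59 and 5.38 CPM in CebpbΔM MECs 1 and 3, and at 1.8 and 1.19 CPM in WT macrophages 4 and 5 and 1.47, 0.728, 4.6 and 2.1 CPM in CebpbΔM macrophages 4, 5, 6 and 7. *Col4a4* was at 3.83 and 3.16 CPM in WT MECs 1 and 3 and 1.82 and 3.6 CPM in CebpbΔM MECs 1 and 3, and at 2.4 and 2.56 CPM in WT macrophages 4 and 5 and 1.52, 3.59, 1.84 and 2.93 CPM in CebpbΔM macrophages 4, 5, 6 and 7. Their ratio per kb varied 12.3-fold over the 10 libraries, against 1.45-fold for *Col4a1* and *Col4a2*. With TMM scaling all 6 log2 fold changes of this class, and with scaling by total count alone 4, were below 0 in MECs, from -0.34 to -0.01, and 5 of 6 were above 0 in macrophages, from -0.03 to 0.54, none past the threshold. In MECs the signs near 0 depended on the scaling. With libraries scaled by total count alone, the log2 ratio of the CebpbΔM to the WT level was 0.0218 for *Col4a2* and 0.00213 for *Col4a3*, and of the other collagen genes *Col5a3* turned positive too, at 0.0338.

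Type VI collagen forms beaded filaments near cells from trimers of the *Col6a1*, *Col6a2* and *Col6a3* chains, in which the chains of *Col6a4*, *Col6a5* or *Col6a6* can stand in for that of *Col6a3*. *Col6a1* (ENSMUSG00000001119, chromosome 10, 76708792 to 76726168, minus strand) was at 339 and 259 CPM in WT MECs 1 and 3 and 241 and 248 CPM in CebpbΔM MECs 1 and 3. With TMM scaling the CebpbΔM values were the lower pair (log2 fold change -0.27, SE 0.22, adjusted *P* of 0.9997 by edgeR QL). By total count alone the genotypes overlapped for *Col6a1*. *Col6a2* was at 272 and 179 CPM in WT MECs 1 and 3 and 176 and 161 CPM in CebpbΔM MECs 1 and 3, without overlap (log2 fold change -0.40, SE 0.23, adjusted *P* of 0.9997 by edgeR QL). *Col6a3* (ENSMUSG00000048126, chromosome 1, 90765923 to 90843971, minus strand) was at 76.5 and 44.4 CPM in WT MECs 1 and 3 and 21.9 and 47.2 CPM in CebpbΔM MECs 1 and 3, with CebpbΔM 1 below the other libraries and CebpbΔM 3 between the WT values, and its log2 fold change was -0.77 (SE 0.36, adjusted *P* of 0.937 by edgeR QL). Without CebpbΔM MEC 3 that of *Col6a3* was -1.47 (edgeR QL, adjusted *P* = 0.0145), with the spread again taken from the 2 WT libraries alone.

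In macrophages *Col6a3* had the second-smallest *P* among collagen genes, at 94.9 and 143 CPM in WT macrophages 4 and 5 and 50.3, 88.9, 81.3 and 77.5 CPM in CebpbΔM macrophages 4, 5, 6 and 7. All 4 CebpbΔM values lay below both WT values, and the log2 fold change was -0.70 (SE 0.26, adjusted *P* of 0.533 by edgeR QL). *Col6a1* was at 214 and 286 CPM in WT macrophages 4 and 5 and 154, 242, 150.3 and 173 CPM in CebpbΔM macrophages 4, 5, 6 and 7, where only CebpbΔM 5 reached the WT values (log2 fold change -0.50, SE 0.23, adjusted *P* of 0.597 by edgeR QL). *Col6a2* was at 136 and 159.8 CPM in WT macrophages 4 and 5 and 91.8, 196, 94.3 and 93.7 CPM in CebpbΔM macrophages 4, 5, 6 and 7, with CebpbΔM 5 above both WT libraries and the other 3 CebpbΔM libraries below them. The ratio of *Col6a1* to *Col6a2* per kb was 2.34 to 3.52 over all libraries, whereas that of *Col6a1* to *Col6a3* was 12.1 to 30.1 in MECs and 5.05 to 8.36 in macrophages, without overlap. CebpbΔM MEC 1 had the highest *Col6a1* to *Col6a3* ratio, 30.1.

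Of the alternative chains, *Col6a6* was at 1.33 and 0.77 CPM in WT MECs 1 and 3 and 0.527 and 0.426 CPM in CebpbΔM MECs 1 and 3. In macrophages it was at 3.5 and 7.88 CPM in WT macrophages 4 and 5 and 3.56, 7.62, 6.39 and 7.73 CPM in CebpbΔM macrophages 4, 5, 6 and 7, with all 6 values above the MEC values, and the log2 fold change of WT macrophages over WT MECs was 2.43 (SE 0.56, adjusted *P* of 0.00883 by edgeR QL). *Col6a5* was counted 12 and 8 in WT MECs 1 and 3 and 2 and 0 in CebpbΔM MECs 1 and 3. The counts of *Col6a5* in macrophages were 48 and 19 in WT macrophages 4 and 5 and 43, 26, 78 and 84 in CebpbΔM macrophages 4, 5, 6 and 7. *Col6a4* was at 2.34 and 1.46 CPM in WT MECs 1 and 3 and 2.64 and 2.09 CPM in CebpbΔM MECs 1 and 3, and at 1.5 and 2.99 CPM in WT macrophages 4 and 5 and 3.25, 1.41, 2.16 and 0.0599 CPM in CebpbΔM macrophages 4, 5, 6 and 7, where 1 CebpbΔM macrophage library was near 0.

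Collagens of epithelial junctions and several FACITs differed by over 5-fold among the CebpbΔM macrophage libraries. *Col7a1* encodes the anchoring fibril under stratified and glandular epithelium, *Col17a1* a transmembrane collagen of hemidesmosomes, *Col16a1* a FACIT, and *Col9a1*, *Col9a2* and *Col9a3* the chains of type IX, the FACIT of cartilage fibrils. *Col16a1* (ENSMUSG00000040690, chromosome 4, 130047840 to 130099283, plus strand) was at 383 and 185 CPM in WT MECs 1 and 3 and 202 and 260.4 CPM in CebpbΔM MECs 1 and 3, with overlap and a log2 fold change of -0.27 (SE 0.31, adjusted *P* of 0.9997 by edgeR QL). In macrophages it was at 74.8 and 68.1 CPM in WT macrophages 4 and 5 and 231, 135, 47.3 and 39.5 CPM in CebpbΔM macrophages 4, 5, 6 and 7. CebpbΔM 4 and 5 were above both WT libraries and CebpbΔM 6 and 7 below them. The log2 fold change was 0.64 (SE 0.66, adjusted *P* of 0.852 by edgeR QL), and for CebpbΔM 6 and 7 alone against the WT libraries it was -0.74.

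*Col9a2* (ENSMUSG00000028626, chromosome 4, 121039385 to 121055322, plus strand) was at 80.9 and 34.8 CPM in WT MECs 1 and 3 and 79.99 and 43.5 CPM in CebpbΔM MECs 1 and 3. In macrophages *Col9a2* was at 5.35 and 6.65 CPM in WT macrophages 4 and 5 and 42, 23.1, 7.79 and 1.8 CPM in CebpbΔM macrophages 4, 5, 6 and 7 (log2 fold change 1.62, SE 1.005, adjusted *P* of 0.7004 by edgeR QL), and -0.35 for CebpbΔM 6 and 7 alone. The other chains had the same order of CebpbΔM libraries. *Col9a1* was at 10.004 and 8.17 CPM in WT macrophages 4 and 5 and 43.2, 16, 13.2 and 1.74 CPM in CebpbΔM macrophages 4, 5, 6 and 7. *Col9a3* was at 24.7 and 13.1 CPM in WT macrophages 4 and 5 and 103, 53, 18.2 and 3.77 CPM in CebpbΔM macrophages 4, 5, 6 and 7. Both, like *Col9a2*, were highest in CebpbΔM 4 and lowest in CebpbΔM 7. In MECs *Col9a1* was at 32.9 and 39.6 CPM in WT MECs 1 and 3 and 44.4 and 22 CPM in CebpbΔM MECs 1 and 3. *Col9a3* was at 138 and 85.5 CPM in WT MECs 1 and 3 and 106 and 99.3 CPM in CebpbΔM MECs 1 and 3, and the MEC genotypes overlapped for all 3 chains. *Col7a1* was counted 267 and 257 in WT macrophages 4 and 5 and 1109, 777, 36 and 23 in CebpbΔM macrophages 4, 5, 6 and 7. For *Col17a1* the counts were 413 and 379 in WT macrophages 4 and 5 and 1008, 989, 265 and 83 in CebpbΔM macrophages 4, 5, 6 and 7. The basal and myoepithelial markers were likewise highest in CebpbΔM macrophage 4, at 3248 CPM, followed by 2076 and 2018 CPM in CebpbΔM 5 and 6, 1276 and 820.4 CPM in WT 4 and 5, and 755 CPM in CebpbΔM 7. All 8 of these markers had a log2 fold change above 0 in CebpbΔM macrophages, and 0 passed the threshold. The fibroblast markers had another order of libraries. They summed to 2960 and 2369 CPM in WT macrophages 4 and 5. In CebpbΔM macrophages 4, 5, 6 and 7 the sums were 1638, 2143, 1640 and 3909 CPM. The part of either marker list in the values of the collagen genes was not tested.

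**Figure D4:**
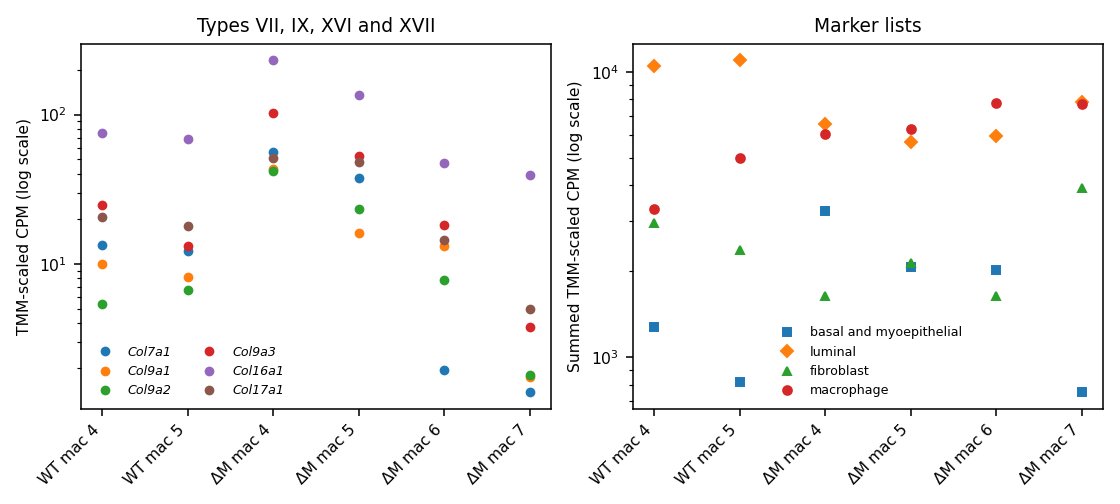
TMM-scaled CPM (log scales) in the 6 macrophage libraries (ΔM stands for CebpbΔM and mac for macrophages), with the genes of types VII, IX, XVI and XVII on the left and the summed marker lists on the right; each point is a library. Both the collagen genes and the basal and myoepithelial markers are highest in ΔM mac 4, where the markers reach 3248 CPM, and both are lowest in ΔM mac 7. In ΔM mac 6 these markers, at 2018 CPM, are above both WT libraries. There *Col7a1*, *Col16a1* and *Col17a1* are below both WT libraries, *Col9a1* and *Col9a2* above both, and *Col9a3* between them.

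Over the 37 collagen genes above the floor in all 4 CebpbΔM macrophage libraries, the highest library exceeded the lowest by a median of 3.13-fold, and by over 5-fold for 10 genes: the 6 named above and *Col4a3*, *Col11a1*, *Col19a1* and *Col28a1*. For 19 of the 37, both libraries 4 and 5 were above both libraries 6 and 7, for 5 it was the reverse, and for 13 they overlapped. Neither the spread nor this split was counted over all genes, so they are not shown to be particular to collagen genes. The 5 were *Col4a3*, *Col6a5*, *Col8a1*, *Col20a1* and *Col28a1*. The lowest of the 6 macrophage libraries was CebpbΔM 7 for 15 of the 36 genes over the floor in all 6, and the highest was CebpbΔM 4 for 13 and CebpbΔM 5 for 11. In MECs, CebpbΔM 1 was the lowest library for 21 of the 40 genes over the floor in all 4, and WT 1 was the highest for 25. In neither cell type was the lowest or highest library counted over all genes, so an offset of whole libraries cannot be told apart here.

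*Col12a1*, a FACIT that lies along type I fibrils, had the smallest *P* of the collagen genes in MECs. It was at 29.2 and 32.4 CPM in WT MECs 1 and 3 and 15.8 and 24.4 CPM in CebpbΔM MECs 1 and 3, without overlap, and the log2 fold change was -0.59 (SE 0.27, adjusted *P* of 0.928 by edgeR QL). In macrophages *Col12a1* was at 15.8 and 9.35 CPM in WT macrophages 4 and 5 and 9.7, 14.1, 8.17 and 7.67 CPM in CebpbΔM macrophages 4, 5, 6 and 7, with overlap. Type VIII collagen, a short-chain network collagen of vessel walls and of the membrane under the corneal endothelium, has the chains of *Col8a1* and *Col8a2*. *Col8a1* was at 70.9 and 151 CPM in WT MECs 1 and 3 and 87.9 and 106 CPM in CebpbΔM MECs 1 and 3, and at 78.2 and 67.3 CPM in WT macrophages 4 and 5 and 34.9, 48.8, 126 and 53.4 CPM in CebpbΔM macrophages 4, 5, 6 and 7. *Col8a2* was at 1.65 and 2.31 CPM in WT MECs 1 and 3 and 4.26 and 2.67 CPM in CebpbΔM MECs 1 and 3, with the CebpbΔM values higher and no overlap, and with a log2 fold change of 0.82 (SE 0.42, adjusted *P* of 0.9997 by edgeR QL). In macrophages its counts were 0 and 0 in WT macrophages 4 and 5 and 16, 2, 12 and 12 in CebpbΔM macrophages 4, 5, 6 and 7. CebpbΔM macrophages were at least 3.89-fold higher than WT against the floor of 3 counts per library, but 1 of the 4 CebpbΔM libraries was itself at 2 counts. WT MECs were at least 13.5-fold higher than WT macrophages (edgeR QL, adjusted *P* = 0.00285).

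*Col23a1* (ENSMUSG00000063564, chromosome 11, 51289920 to 51583918, plus strand), a transmembrane collagen, had the smallest *P* of the collagen genes in macrophages. It was counted 50 and 83 in WT macrophages 4 and 5 and 148, 197, 158 and 103 in CebpbΔM macrophages 4, 5, 6 and 7. All 4 CebpbΔM libraries lay above both WT libraries, at 7.95 ± 1.45 CPM (SD, n = 4) against 3.22 ± 1.02 CPM (SD, n = 2), and the log2 fold change was 1.28 (SE 0.36, adjusted *P* of 0.48 by edgeR QL). Over the alternatives this fold change kept its sign, from 0.99 to 1.64, with an adjusted *P* from 0.0972 to 0.797. In MECs *Col23a1* was at 2.74 and 2.55 CPM in WT MECs 1 and 3 and 2.19 and 3.87 CPM in CebpbΔM MECs 1 and 3, with overlap. The 4 transmembrane collagens all had log2 fold changes above 0 in macrophages, from 0.31 to 1.28, and 2 of 4 in MECs. Of all genes, 49.6% were below 0 in macrophages and 51.4% in MECs. The macrophage genotypes overlapped for *Col13a1*, *Col17a1* and *Col25a1*. For *Col17a1*, CebpbΔM 4 and 5 were above both WT libraries and CebpbΔM 6 and 7 below both. *Col26a1*, a collagen of the developing gonad, was below 1 CPM in 3 of the 4 CebpbΔM macrophage libraries and above it in both WT libraries, at 2.85 and 1.76 CPM in WT macrophages 4 and 5 and 1.32, 0.826, 0.162 and 0.0599 CPM in CebpbΔM macrophages 4, 5, 6 and 7, and its log2 fold change was -1.96 (SE 1.03, adjusted *P* of 0.641 by edgeR QL). In MECs *Col26a1* was at 2.54 and 0.648 CPM in WT MECs 1 and 3 and 1.95 and 1.16 CPM in CebpbΔM MECs 1 and 3.

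The remaining collagen genes are given by level. *Col14a1*, a FACIT of dense connective tissue, was at 89.6 and 55.7 CPM in WT MECs 1 and 3 and 44.2 and 88.5 CPM in CebpbΔM MECs 1 and 3, and at 98.2 and 81.9 CPM in WT macrophages 4 and 5 and 135, 109.7, 65.4 and 96.9 CPM in CebpbΔM macrophages 4, 5, 6 and 7. *Col15a1*, a multiplexin of the zone under the basement membrane, was at 15.2 and 9.97 CPM in WT MECs 1 and 3 and 8.07 and 14.7 CPM in CebpbΔM MECs 1 and 3, and at 12.5 and 29.2 CPM in WT macrophages 4 and 5 and 13.5, 28.9, 14.6 and 11.4 CPM in CebpbΔM macrophages 4, 5, 6 and 7. *Col18a1*, the multiplexin of vascular and epithelial basement membranes and the source of endostatin, was at 106 and 48.6 CPM in WT MECs 1 and 3 and 71.2 and 73.8 CPM in CebpbΔM MECs 1 and 3, and at 104 and 152 CPM in WT macrophages 4 and 5 and 91.3, 133, 116 and 75.1 CPM in CebpbΔM macrophages 4, 5, 6 and 7. The genotypes overlapped for both multiplexins in both cell types. Of the transmembrane collagens, *Col13a1* was at 1.17 and 2.19 CPM in WT MECs 1 and 3 and 2.59 and 2.56 CPM in CebpbΔM MECs 1 and 3, with the CebpbΔM values higher and no overlap, and at 6.75 and 2.71 CPM in WT macrophages 4 and 5 and 4.22, 9.52, 5.74 and 8.51 CPM in CebpbΔM macrophages 4, 5, 6 and 7. *Col25a1*, first known from amyloid plaques, was at 3.23 and 1.98 CPM in WT MECs 1 and 3 and 1.86 and 2.63 CPM in CebpbΔM MECs 1 and 3, and at 1.75 and 2.09 CPM in WT macrophages 4 and 5 and 2.39, 3.35, 3.19 and 0.779 CPM in CebpbΔM macrophages 4, 5, 6 and 7. *Col7a1* in MECs was at 83.9 and 40.3 CPM in WT MECs 1 and 3 and 47 and 62.2 CPM in CebpbΔM MECs 1 and 3. *Col17a1* was at 189 and 90.3 CPM in WT MECs 1 and 3 and 76.8 and 125 CPM in CebpbΔM MECs 1 and 3, and like *Col7a1* was high in WT 1 and CebpbΔM 3. *Col28a1*, outside the other classes, was counted 100 and 75 in WT MECs 1 and 3 and 55 and 130 in CebpbΔM MECs 1 and 3. In macrophages the counts of *Col28a1* were 77 and 252 in WT macrophages 4 and 5 and 26, 96, 213 and 98 in CebpbΔM macrophages 4, 5, 6 and 7, with CebpbΔM 6 and 7 above CebpbΔM 4 and 5. *Col10a1*, the short-chain collagen of growth plate cartilage, was counted 6 and 11 in WT MECs 1 and 3 and 2 and 3 in CebpbΔM MECs 1 and 3, and 0 and 1 in WT macrophages 4 and 5 and 0, 13, 1 and 5 in CebpbΔM macrophages 4, 5, 6 and 7. The other low members were FACITs and minor fibrillar chains. *Col19a1*, which lies tail to tail with *Col9a1*, was counted 0 and 5 in WT MECs 1 and 3 and 6 and 4 in CebpbΔM MECs 1 and 3, and 1 and 33 in WT macrophages 4 and 5 and 22, 21, 86 and 5 in CebpbΔM macrophages 4, 5, 6 and 7. *Col20a1* was counted 122 and 97 in WT MECs 1 and 3 and 131 and 101 in CebpbΔM MECs 1 and 3, and 102 and 77 in WT macrophages 4 and 5 and 80, 83, 91 and 82 in CebpbΔM macrophages 4, 5, 6 and 7. *Col22a1*, a FACIT of tissue junctions such as those of muscle and tendon, was counted 6 and 0 in WT MECs 1 and 3 and 0 and 0 in CebpbΔM MECs 1 and 3, and 12 and 0 in WT macrophages 4 and 5 and 0, 0, 1 and 0 in CebpbΔM macrophages 4, 5, 6 and 7. Its counts were at or under the floor in several libraries of both cell types. *Col24a1*, a fibrillar chain, was counted 14 and 7 in WT MECs 1 and 3 and 12 and 13 in CebpbΔM MECs 1 and 3, and 1 and 23 in WT macrophages 4 and 5 and 0, 0, 43 and 0 in CebpbΔM macrophages 4, 5, 6 and 7. *Col11a1*, a chain of the cartilage collagen XI, was at 3.7 and 3.61 CPM in WT macrophages 4 and 5 and 15.4, 8.3, 3.03 and 1.8 CPM in CebpbΔM macrophages 4, 5, 6 and 7, an order like that of the type IX genes. Exons of *Col7a1* and *Col20a1* overlap *Mir711* and *BX649560.1* on the same strand, and those of 10 collagen genes overlap another gene on the opposite strand.

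An interaction term over all 10 libraries asked whether the effect of genotype differed from MECs to macrophages. The QL test passed 0 of 42 collagen genes and 0 of 18321 genes (0.0%). An unadjusted *P* under 0.05 was found for 2 of the 42 (4.76%), against 5.19% of all genes, and the likelihood ratio test also passed 0 collagen genes. These 2 were *Col8a2*, at 0 counts in both WT macrophage libraries, and *Col6a5*, at 0 counts in CebpbΔM MEC 3 (edgeR QL, adjusted *P* = 0.922 for both), and their fitted differences are not given because they involve libraries at or near 0. The next was *Col23a1*, with a difference of 1.11 (SE 0.55, adjusted *P* of 0.967 by edgeR QL) on the log2 scale.

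WT macrophages were compared with WT MECs to see which collagens marked each preparation. The QL test passed 9 of 42 collagen genes (21.4%), against 25.4% of all 18321 genes. Of the 9, *Col6a6*, *Col5a3* and *Col27a1* (3 of 42, against 14.8% of all genes) were higher in macrophages and *Col2a1*, *Col8a2*, *Col9a2*, *Col17a1*, *Col4a6* and *Col12a1* (6 of 42, against 10.7%) higher in MECs. WT macrophages and WT MECs did not overlap for 27 of the 42 (64.3%), against 65.1% of all genes. *Col9a2* was at 57.8 ± 32.6 CPM (SD, n = 2) in WT MECs and 5.999 ± 0.915 CPM (SD, n = 2) in WT macrophages, a log2 fold change of -3.27 (SE 1.05, adjusted *P* of 0.0416 by edgeR QL). Outside the WT libraries, *Col9a2* reached 13.6 CPM per kb in CebpbΔM macrophage 4, above the 11.2 CPM per kb of WT MEC 3. *Col17a1* was counted 4688 and 2230 in WT MECs and 413 and 379 in WT macrophages (edgeR QL, adjusted *P* = 0.0318). *Col12a1* was at 30.8 ± 2.26 CPM (SD, n = 2) and 12.6 ± 4.56 CPM (SD, n = 2) in these groups (edgeR QL, adjusted *P* = 0.0251). The 3 leading collagens did not pass: *Col1a1* was at 2146 ± 504 CPM (SD, n = 2) in WT MECs and 1772 ± 101 CPM (SD, n = 2) in WT macrophages, and *Col3a1* at 1000.1 ± 121 CPM (SD, n = 2) and 1868 ± 104 CPM (SD, n = 2). By the likelihood ratio test 13 passed, with *Col5a1*, *Col9a3*, *Col13a1* and *Col16a1* added. The count of 9 fell to 2, *Col8a2* and *Col2a1*, without WT MEC 3 and to 5 without WT macrophage 5. The fibroblast markers were higher in WT macrophages for 10 of 10 genes, 6 of them past the threshold, and the basal and myoepithelial markers lower for 8 of 8, 5 of them past it. All 8 endothelial markers and all 8 markers of pericytes and vascular muscle were higher in WT macrophages and past the threshold, with median log2 fold changes of 3.61 and 2.40. The part of these cell types in the collagen differences was not tested. The cell types were isolated by different methods and counted in separate tables, so that cell type and isolation cannot be told apart.

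**Figure D5:**
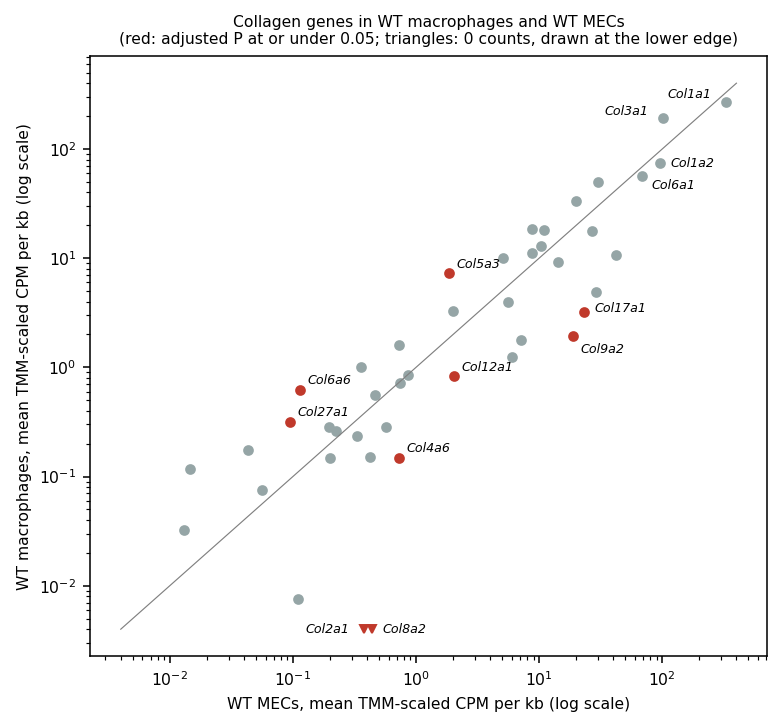
Mean level of each collagen gene in WT MECs (x axis) and WT macrophages (y axis), in TMM-scaled CPM per kb of exon on log scales, with 2 libraries per mean; red points passed an adjusted *P* of 0.05, triangles are genes at 0 counts in WT macrophages, and the line marks equal levels. *Col1a1*, *Col1a2*, *Col3a1* and *Col6a1* lie at the top in both, and the red points above the line are *Col5a3*, *Col6a6* and *Col27a1*.

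C/EBPβ, the product of *Cebpb*, binds short sites that begin with TT and end with AA, so the 250 bases before the annotated starts were searched for TTNNGNAA on both strands. RefSeq entries (GRCm38.p6) matched 35 of the 44 genes, with 38 start windows. The letters TTNNGNAA were found for 12 of the 35 genes (12 of 38 windows), against 36.8% of 32851 windows of all genes, and CCAAT, also searched on both strands and able to overlap a TTNNGNAA match, for 13 windows against 33.8%. Among the 12 genes were *Col4a6*, *Col5a3*, *Col6a2*, *Col6a5*, *Col8a1*, *Col17a1* and *Col23a1*, and among those without it *Col1a2*, *Col3a1*, *Col4a1* and *Col16a1*. A match is only a description of the letters. *Col3a1* had no match and ranked 2 among the collagen genes per kb in macrophages. *Col5a3* was higher in WT macrophages, and *Col23a1* had the smallest *P* of the collagen genes between macrophage genotypes. The windows of *Col3a1* (chr1:45311288-45311537, plus strand), *Col5a3* (chr9:20815068-20815317, minus strand) and *Col23a1* (chr11:51289670-51289919, plus strand) are printed 5′ to 3′ with the TTNNGNAA match in capitals.
*Col3a1*: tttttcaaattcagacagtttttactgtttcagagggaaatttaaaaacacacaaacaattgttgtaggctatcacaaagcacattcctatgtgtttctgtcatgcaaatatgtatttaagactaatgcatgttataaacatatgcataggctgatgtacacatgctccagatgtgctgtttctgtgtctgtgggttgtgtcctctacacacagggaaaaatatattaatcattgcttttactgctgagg
*Col5a3*: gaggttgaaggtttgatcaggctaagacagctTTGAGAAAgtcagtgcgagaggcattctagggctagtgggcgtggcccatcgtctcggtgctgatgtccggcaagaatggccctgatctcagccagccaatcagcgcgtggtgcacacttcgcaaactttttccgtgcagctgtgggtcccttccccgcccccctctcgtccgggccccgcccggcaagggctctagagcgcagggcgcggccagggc
*Col23a1*: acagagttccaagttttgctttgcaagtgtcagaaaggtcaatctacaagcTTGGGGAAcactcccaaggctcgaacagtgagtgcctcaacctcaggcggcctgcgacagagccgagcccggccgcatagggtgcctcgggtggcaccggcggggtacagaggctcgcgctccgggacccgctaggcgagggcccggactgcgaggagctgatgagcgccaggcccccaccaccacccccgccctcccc
Counted from the annotated start, the match in *Col5a3* lay at -218 to -211, with a CCAAT at -122 to -118, and that in *Col23a1* at -199 to -192. The window of *Col3a1* held a TATAAA at -117 to -112.

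Genes that act on collagen were counted in 4 lists. Of 20 genes for folding and modifying collagen chains in the endoplasmic reticulum, 19 were tested in MECs and 20 in macrophages, and 0 passed in either genotype comparison. The highest per kb were *Sparc*, which encodes a collagen-binding chaperone (397 CPM per kb in MECs and 419.6 in macrophages), and *P4hb*, the beta subunit of prolyl 4-hydroxylase (328 and 215 CPM per kb). The third was *Ppib* in MECs (64.3 CPM per kb) and *Serpinh1*, the collagen chaperone HSP47, in macrophages (94.4 CPM per kb). In MECs 10 of the 19 log2 fold changes were above 0 and 9 below, with a median of 0.02. Of the 19 genes, 4 had an unadjusted *P* under 0.05, against 5.42% of all genes. All 4 were higher in CebpbΔM, and they were chosen for naming after their values were seen. They were *Crtap* and *P3h1*, partners in the prolyl 3-hydroxylase complex, *P3h4*, a related protein without known hydroxylase activity, and *Colgalt1*, which adds galactose to hydroxylysine. *Crtap* was counted 324 and 473 in WT and 1138 and 904 in CebpbΔM MECs, with a log2 fold change of 1.35 (SE 0.27, adjusted *P* of 0.117 by edgeR QL). *Colgalt1* was counted 810 and 1086 in WT and 2020 and 2046 in CebpbΔM MECs, at 1.09 (SE 0.23, adjusted *P* of 0.122 by edgeR QL). Those of *P3h4* and *P3h1* were 1.13 (SE 0.28, adjusted *P* of 0.209 by edgeR QL) and 0.89 (SE 0.25, adjusted *P* of 0.329 by edgeR QL). The likelihood ratio test and DESeq2, on the same counts, passed *Crtap*, *Colgalt1* and *P3h4*, but not *P3h1*. None of the 4 overlapped between the MEC genotypes, and neither did 28.2% of all genes. Since the 4 were picked by their *P* in this comparison, the lack of overlap adds no support.

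Of 14 genes for processing and crosslinking of secreted collagen, 12 were tested in MECs and 13 in macrophages, and 0 passed. *Tgm2*, a transglutaminase that also has functions outside the matrix and whose gene overlaps *Gm20412* on the opposite strand, was by far the highest, at 509 CPM per kb in MECs and 205 in macrophages, before *Pcolce* (24.3 and 37.7) and *Loxl1* (12.5 and 36.9). It was counted 106426 and 71715 in WT and 26887 and 28287 in CebpbΔM MECs. Its log2 fold change was -1.70 (SE 0.27, adjusted *P* of 0.0732 by edgeR QL) in MECs, where the likelihood ratio test and DESeq2 passed it, and -0.96 (SE 0.31, adjusted *P* of 0.517 by edgeR QL) in macrophages. Of 11 receptor and uptake genes, 7 and 9 were tested and 0 passed between genotypes. The mannose receptor gene *Mrc1*, which takes up collagen fragments, was at 650.1 ± 235 CPM (SD, n = 2) in WT and 958 ± 264 CPM (SD, n = 4) in CebpbΔM macrophages and under 1 CPM in every MEC library. *Itgb1*, the integrin subunit shared by collagen receptors, had 69.5 CPM per kb in MECs and 56.6 in macrophages, and the collagen receptor *Ddr1* 34.8 and 14.3. Of 10 collagen-binding matrix genes, all were tested and 0 passed, with *Dcn*, which encodes decorin, the highest at 324 CPM per kb in MECs and 287 in macrophages. In WT macrophages against WT MECs, 3 of 20, 4 of 13, 6 of 9 and 6 of 10 tested genes of the 4 lists passed, of which 3, 3, 5 and 4 were higher in macrophages, beside 25.4% of all genes passing and 14.8% passing and higher.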

How the data were processed

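Total RNA of mammary epithelial cells and of F4/80-selected macrophages was sequenced as paired ends, and 1 table of raw counts per cell type was used. Per the labels and the methods of the study, the authors trimmed reads with Trimmomatic, aligned them to GRCm38 with HISAT2 and counted fragments per gene with featureCounts 1.6.2 on Ensembl release 100, with both mates aligned, mapping quality 10 or higher and reverse-stranded counting. The deposited counts were not normalised.

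Gene identifiers were given symbols from the annotation, and genes shorter than 300 nt were left out of the tests. Libraries were grouped by the labels. For each comparison, genes with more than 1 CPM in at least 2 libraries of the fit were tested with the quasi-likelihood test of edgeR 4.0.16 (R 4.3.3, limma 3.58.1) after TMM scaling, within cell type for the genotypes and over all 10 libraries for the interaction and the WT cell types. *P*-values were adjusted by Benjamini–Hochberg over all genes tested, with a threshold of 0.05. Each SE was worked back from the log2 fold change and the F statistic of the quasi-likelihood test. It therefore adds nothing to the fold change and its *P*-value. The scripts were tested on simulated data. Levels are TMM-scaled CPM over all 10 libraries, divided by exon length in kb where single genes are ranked or set in ratio. Sums and shares over several genes are not divided by length. Total counts were 25310926 to 27008166 for MECs and 16935000 to 20174722 for macrophages. Tables were made by the authors per cell type, so values set across cell types also cross tables. The floor of 3 counts covers counting error only.

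Alternatives were edgeR's likelihood ratio test (the test of the study), DESeq2 1.42.0, RLE scaling, filterByExpr or no filter, a replicate block, 1 fit for all libraries and leaving out each library. CebpbΔM macrophages 6 and 7 alone were added after the data were seen. By rule, values in every library are given for the 5 highest genes per kb of each cell type, those past the threshold or with the 5 smallest *P* in each genotype comparison, the chains that share their trimers, the 3 called genes with the largest change in each direction between WT cell types, and the 3 with the smallest *P* in the interaction; the other members, and fold changes outside this rule, were added after values were seen. The members and lists were chosen with earlier results of these data known.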

Additional observations from a re-analysis of the deposited data

Results flagged for a closer look

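Among 40 collagen genes with values in the 4 CebpbΔM macrophage libraries, 2 had 1 library far from the others, by Dixon's gap ratio on log2(CPM + 1) against its critical value for 4 samples. Chance alone would flag about 5% of such groups. *Col6a2* was highest in CebpbΔM macrophage 5, with a gap ratio of 0.966. *Col24a1* was highest in CebpbΔM macrophage 6, with a gap ratio of 1.0, since it was counted 43 there and 0 in the other 3 libraries. No technical source of either value was tested.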

How the results depend on the processing

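The count of collagen genes past the threshold stayed at 0 in both genotype comparisons and in the interaction under every alternative, except that leaving out single MEC libraries gave 0 to 3. Between WT cell types, where 9 passed, leaving out single libraries gave 2 to 11, the likelihood ratio test 13 and no filter 10. Over all genes, the 8 calls between MEC genotypes became 179 with the likelihood ratio test, 161 with DESeq2, 38 without the filter, 0 in 1 fit of all libraries and 5 to 339 without single libraries. The 0 calls between macrophage genotypes became 138 and 201 with the likelihood ratio test and DESeq2, the 0 calls of the interaction became 53 with the likelihood ratio test and 0 to 1 without single libraries, and the 4661 calls between WT cell types became 2454 to 4845 without single libraries. The cause was not tested.

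The replicate block gave 206, 12 and 1 calls over all genes for MECs, macrophages and the interaction, and 0 collagen genes in each. Libraries with the same number correlated in their deviations at 0.096 in MECs and 0.083 in macrophages, over 18321 genes. These values cannot decide whether same-numbered libraries were paired. No block could be set between WT cell types, which share no numbers.

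Of the 32 log2 fold changes followed, 7 changed sign, under 12 combinations of gene and alternative, and were not past the threshold there. Leaving out single libraries, that of MECs was -1.70 to 0.30 for *Col3a1*, -0.70 to 0.47 for *Col4a1* and -0.67 to 0.34 for *Col16a1*, and that of macrophages -0.16 to 0.35 for *Col4a1*. In macrophages *Col3a1* was 0.17 with the replicate block and 0.22 with libraries 4 and 5 only. With CebpbΔM 6 and 7 only, *Col4a1* was -0.57, *Col9a2* -0.35 and *Col16a1* -0.74. Scaling by total count alone changed the sign of 3 of 87 level differences. It also made the MEC genotypes overlap for *Col1a1*, *Col1a2*, *Col4a6*, *Col6a1* and *Col11a2*, which did not overlap with TMM scaling. Of the 4 groups 3 have 2 libraries, and the genes under the filter on low counts were not tested.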
